A study of Bos taurus with 9 samples.

Results

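The genes described are *HP*, *SAA3*, *LBP*, *ORM1*, *CRP*, *A2M*, *ITIH4*, *ITIH3* and *CP*, which encode positive acute phase proteins, the plasma proteins whose concentration goes up during inflammation. They were taken by symbol from the read count table of the series, which makes them 9 of the 28786 genes listed, and all 9 passed the filter on low counts that left 15073 genes. Liver RNA with a poly-A tail was sequenced from 9 lactating Holstein dairy cows, a breed of high milk yield, with 1 biopsy and 1 library per cow. The 3 cows of the HS group were kept under heat stress, the 3 cows of the PF group were kept in thermoneutrality but were given only as much feed as the heat-stressed cows ate, and the 3 cows of the TN group stayed in thermoneutrality without that limit. HS against TN cows therefore compares heat together with the lower intake, HS against PF cows compares heat at a matched intake, and PF against TN cows compares the lower intake alone. All cows were first accustomed to the housing in thermoneutrality, were balanced over the conditions by lactation, pregnancy and milk yield, and were fed and milked on the same schedule. The study picked these 9 cows at random from a larger experiment. Their mean days in milk were lowest in TN and highest in PF cows. The biopsy holds all cell types of the liver, and each cow was sampled in 1 condition only, so that no value before the treatment is compared.

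The acute phase response is a change in the proteins that the liver secretes after infection, tissue injury or stress. Macrophages and other cells release cytokines, above all IL6, IL1 and TNF, which act on hepatocytes through STAT3, NF-kB and C/EBP transcription factors and raise the transcription of the positive acute phase genes. In cattle, haptoglobin and serum amyloid A are the main positive acute phase proteins and are measured in blood as signs of inflammation. Albumin, transferrin and other proteins whose production goes down in the response are called negative acute phase proteins.

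Expression is given as CPM, counts scaled to a common library total, after TMM normalization, a correction of the totals that is set by most genes and not by a few abundant ones. CPM is not corrected for transcript length, so levels are compared between cows for a given gene and not between genes. The libraries held 16874444 to 22557047 counts, and 3 counts, the most that a count of 0 allows, corresponded to 0.111 to 0.202 CPM. All 10 hepatocyte markers examined were detected in every cow, as the label of liver requires, but TN replicate 1 stood apart. The markers summed to 15943 CPM in that cow and to between 45961 and 99251 CPM in the other 8, with *ALB* (albumin) at 8768 CPM and at 33905 to 82515 CPM, respectively. Most of the sum was *ALB*, and not all 10 markers were low in that cow. *APOA1* and *HNF4A*, for example, lay within the range of the other 8 cows. TN replicate 1 was also the lowest of the 9 cows in 26.9% of all genes and the highest in 23.1%. In whole tissue, fewer hepatocytes and less of an RNA per hepatocyte cannot be told apart. The share of counts on mitochondrial genes was 13.6 to 22.2% in TN, 6.90 to 7.79% in PF and 3.84 to 5.68% in HS cows, and leaving those genes out of the library sizes changed no call among the 9 acute phase genes.

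HS replicate 2 had the highest level among the 9 cows of every one of the 9 acute phase genes, whereas it was the highest cow in 8.64% of all genes. The 9 genes took 5.90% of its counts (95% Wilson interval 5.89 to 5.91%), against 0.545% (0.542 to 0.549%) in TN replicate 1 and 0.842 to 1.61% in the other 7 cows. These intervals cover counting error only, since reads of 1 molecule copied by PCR were not told apart. At the other end, TN replicate 1 was the lowest of the 9 cows in 6 of the 9 genes. The estimates of the 9 genes and the counts of the related gene lists that rest on either cow are therefore also given without it.

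*HP* encodes haptoglobin, which binds the haemoglobin set free from broken red blood cells. Its level was 14.6, 134 and 846 CPM in TN replicates 1, 2 and 3. It was 9.17, 1103 and 210.4 CPM in PF replicates 1, 2 and 3, and 1723, 19381 and 234 CPM in HS replicates 1, 2 and 3. Each group thus held a low and a high cow: the highest cow exceeded the lowest 58.0 times in TN, 120.2 times in PF and 82.9 times in HS cows, and 2112 times over all 9. The lowest value rested on 155 counts and the highest on 331472 counts. HS replicate 3 lay below TN replicate 3 and PF replicate 2, so the HS group overlapped the other 2 groups.

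*SAA3* encodes a serum amyloid A protein, a small lipoprotein-bound protein of the acute phase. It had 6.13, 5.13 and 9.84 CPM in TN replicates 1, 2 and 3. It had 13.1, 27.0 and 20.3 CPM in PF replicates 1, 2 and 3, and 69.2, 165 and 17.6 CPM in HS replicates 1, 2 and 3. The 3 TN cows were the 3 lowest of the 9, while HS replicate 3 fell among the PF cows. Cattle have several serum amyloid A genes of similar sequence, and how reads that fit more than 1 gene were counted is not given in the sources used here, so the split of counts among *SAA2*, *SAA3* and *M-SAA3.2* is uncertain. *M-SAA3.2* had at most 5.66 CPM in any cow.

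*LBP* encodes the lipopolysaccharide-binding protein, which passes bacterial lipopolysaccharide to CD14. Its level was 13.4, 50.4 and 93.7 CPM in TN, 98.5, 286 and 143 CPM in PF and 84.7, 386 and 54.6 CPM in HS replicates 1, 2 and 3. All PF cows were above all TN cows, by a narrow margin between TN replicate 3 and PF replicate 1, and the HS cows spanned the other 2 groups.

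*ORM1* encodes alpha-1-acid glycoprotein, an abundant carrier of drugs and lipids in plasma. It had 1242, 4560 and 6774 CPM in TN, 6055, 4892 and 3530 CPM in PF and 6424, 29183 and 7803 CPM in HS replicates 1, 2 and 3. HS replicates 1 and 3 were close to the highest TN cow, and HS replicate 2 was far above all others. *CRP* encodes C-reactive protein, a pentraxin that binds phosphocholine on damaged cells and bacteria. It had 401, 1226 and 1151 CPM in TN, 1560 and 1440 CPM in PF replicates 1 and 2, 1504 CPM in PF replicate 3, and 900.3, 2042 and 1629 CPM in HS replicates 1, 2 and 3. The 3 PF cows were nearly alike, within 1.08 times of each other.

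*A2M*, *ITIH4* and *ITIH3* encode protease inhibitors or relatives of such inhibitors. *A2M* encodes alpha-2-macroglobulin, which traps proteases of many classes. Its level was 29.3, 125 and 99.6 CPM in TN, 64.5, 188 and 70.5 CPM in PF and 373, 851 and 378 CPM in HS replicates 1, 2 and 3. The lowest HS cow was above the highest of the other 6 cows, which was seen for no other gene of the 9. *ITIH4* and *ITIH3* encode heavy chains of the inter-alpha-trypsin inhibitor family, and RefSeq places the genes side by side on ARS-UCD2.0, with *ITIH1* next to them. *ITIH4* had 669.7, 1637 and 2064 CPM in TN, 855, 2205 and 1414 CPM in PF and 2001, 9542 and 3841 CPM in HS replicates 1, 2 and 3. Its HS replicate 1 lay just below the highest cow of each other group. *ITIH3* had 1547, 1130 and 1460 CPM in TN, 1063, 1487 and 776 CPM in PF and 1442, 1558 and 1315 CPM in HS replicates 1, 2 and 3. Its 9 values lay within 2.01 times of each other, against 14.2 times for *ITIH4*.

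*CP* encodes ceruloplasmin, the copper-carrying ferroxidase of plasma. It had 194, 596 and 695 CPM in TN, 801, 812 and 707 CPM in PF and 406, 1090 and 634 CPM in HS replicates 1, 2 and 3. All PF cows were above all TN cows, and PF replicates differed by 1.15 times at most. In the annotation *CP* overlaps *HPS3*, and since the strand setting of the counting is not given in the sources used here, reads of the shared stretch could have gone to either gene.

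**Figure D1:**
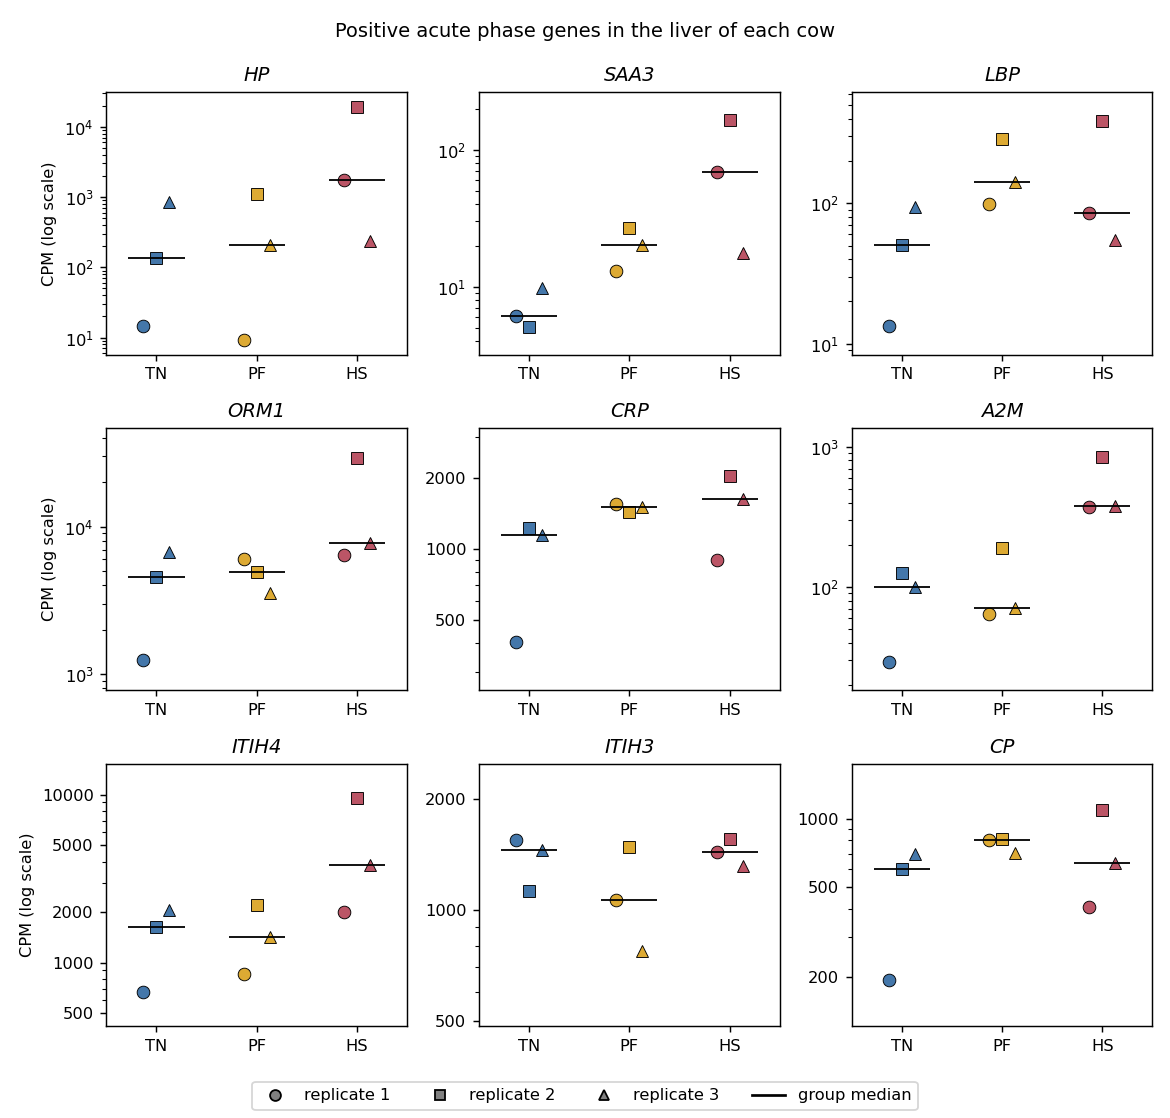
Level of the 9 acute phase genes in each cow, in CPM on a log scale with its own range for each gene, for the TN, PF and HS groups. Each symbol is a cow and its shape is the replicate number, which the labels do not give as a link between cows, and the black lines are group medians. HS replicate 2 is the top symbol in every panel, and only *A2M* has all 3 HS cows (373 to 851 CPM) above the other 6 (29.3 to 188 CPM).

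The spread between cows of the same group was wide for most of these genes. It was measured as the SD of log2(CPM + 0.5) within groups, pooled over the 3 groups, and set beside the same value of all 15073 genes that passed the filter, whose median was 0.392. *HP* had a pooled SD of 3.2, the second highest of all genes. *LBP* followed with 1.26 (99.2nd percentile), *ORM1* with 1.03 (98.2nd), *SAA3* with 1.01 (98.0th), *ITIH4* with 0.91 (96.8th) and *A2M* with 0.90 (96.7th). *CP* had 0.71 (90.5th percentile) and *CRP* 0.63 (84.7th), and *ITIH3*, at 0.31 (31.5th), was the only one of the 9 below the median of all genes. These percentiles describe these 9 cows. The lowest count behind any of the values was 83, for *SAA3* in TN replicate 2.

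The groups did not share the spread equally. For *SAA3* the SD on the log2 scale was 1.61 in HS but 0.45 in TN and 0.51 in PF cows. For *CRP* it was 0.06 in PF, 0.90 in TN and 0.61 in HS cows, and for *CP* it was 0.11 in PF, 1.01 in TN and 0.71 in HS cows. *ORM1* had 0.39 in PF cows and 1.28 and 1.19 in TN and HS cows. *HP* was wide in all groups, with SDs of 2.91 for TN, 3.47 for PF and 3.19 for HS cows. With 3 cows per group, these differences in spread were not tested.

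The group means lay farthest apart for *HP*, *SAA3* and *A2M*. The highest and the lowest group mean on the log2 scale were 4.05 apart for *HP*, 3.03 for *SAA3* and 2.78 for *A2M*. The distance exceeded the pooled SD by the widest margin in *A2M* and *SAA3*, where it compares with SDs of 0.90 and 1.01, while for *HP* it compares with 3.2. For *LBP*, *ORM1* and *ITIH4* the distance was 1.98, 1.75 and 1.67, and for *CRP*, *CP* and *ITIH3* it was 0.86, 0.84 and 0.42.

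The first comparison was HS against TN cows. The mean of *SAA3* was 83.8 ± 74.5 CPM (SD, n = 3) with heat against 7.03 ± 2.48 CPM without it (log2 fold change 3.56, SE 0.68, 95% interval 2.03 to 5.08), and the groups did not overlap. *A2M* averaged 534 ± 275 CPM in HS against 84.6 ± 49.6 CPM in TN cows (log2 fold change 2.65, SE 0.57, 1.38 to 3.92), also without overlap. *HP* had the largest estimate, 4.41 (SE 1.69, 0.62 to 8.21), from means of 7112 ± 10651 CPM in HS against 332 ± 449 CPM in TN cows. The estimates for *ITIH4*, *ORM1* and *LBP* were 1.80 (SE 0.68), 1.78 (SE 0.82) and 1.73 (SE 0.79), and those for *CRP* and *CP* were 0.71 (SE 0.51) and 0.51 (SE 0.53). For *ITIH3* the estimate was 0.04 (SE 0.37), with an interval from -0.79 to 0.88.

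None of the 9 genes was called in this comparison by the quasi-likelihood test of edgeR, where a call needed an FDR under 0.1 besides a fold change over 1.5. The smallest FDR were 0.184 for *SAA3* and 0.252 for *A2M*, and the other 7 ranged from 0.478 to 0.975. Over all genes, 13 of 14582 were called, or 0.0892%, so that a count of 0 among 9 genes is near that background. At an unadjusted p under 0.05 stood 4 of the 9 genes (*HP*, *SAA3*, *ITIH4* and *A2M*), all higher in HS cows, beside 4.13% of all genes in that direction. The 2 genes whose HS cows all exceeded the TN cows compare with 8.37% of all genes. The estimate was above 0 in all 9 genes, beside 49.3% of all genes, and above a fold change of 1.5 in 7, beside 9.89%, and the median log2 fold change was 1.78 beside -0.01 for all genes. DESeq2, which called 1.75% of its genes, called *SAA3* (FDR 0.00489), *ITIH4* (FDR 0.0175) and *A2M* (FDR 3.17e-06). The calls thus depended on the tool, while the estimates did not, at 3.58, 1.83 and 2.67 with DESeq2.

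HS replicate 2 and TN replicate 1 carried much of the difference between HS and TN cows. Without HS replicate 2, the median of the 9 log2 fold changes was 0.76 in place of 1.78, and 2 genes (*SAA3* and *A2M*) had an unadjusted p under 0.05. *HP* was then at 1.56 (SE 1.29), *LBP* at 0.41 (SE 0.63), *ORM1* at 0.76 (SE 0.76) and *ITIH4* at 1.00 (SE 0.63). Without TN replicate 1 the median was 1.35. Without both cows it was 0.33, with 7 of the 9 genes above 0, and *LBP* and *CP* were at -0.05 (SE 0.37) and -0.31 (SE 0.37). *SAA3* and *A2M* kept their direction and their separation of the groups in that fit, with 2.54 (SE 0.62, edgeR FDR 0.578) and 1.74 (SE 0.31, edgeR FDR 0.298). With so few cows, 17.8% of all genes were higher in HS cows without overlap there. *SAA3* was called without HS replicate 3, the HS cow with the lowest level, at an FDR of 0.0676.

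In HS against PF cows, which had the same feed intake, *A2M* was the gene with the clearest separation. It averaged 534 ± 275 CPM in HS against 108 ± 69.8 CPM in PF cows (log2 fold change 2.31, SE 0.49, 95% interval 1.24 to 3.38, edgeR FDR 0.287). *ORM1* was the other gene without overlap, with means of 14470 ± 12760 CPM in HS against 4826 ± 1264 CPM in PF cows (log2 fold change 1.58, SE 0.55, edgeR FDR 0.718). Its groups were apart by a narrow margin only, between HS replicate 1 and PF replicate 1. *HP*, *SAA3* and *ITIH4* had estimates of 4.01 (SE 1.59), 2.05 (SE 0.61) and 1.78 (SE 0.56), with overlapping groups. For *LBP*, *CRP* and *CP* the estimates were -0.01 (SE 0.64), 0.02 (SE 0.34) and -0.13 (SE 0.36), and for *ITIH3* 0.37 (SE 0.32). The intervals of *LBP* (-1.41 to 1.40), *CRP* (-0.73 to 0.77) and *CP* (-0.92 to 0.67) leave room for changes in either direction.

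No gene of the 9 was called in HS against PF cows by edgeR or by DESeq2, beside 0.0276% and 0.771% of all genes, respectively. At an unadjusted p under 0.05 stood 5 of the 9 genes in edgeR (*HP*, *SAA3*, *ITIH4*, *A2M* and *ORM1*), all higher in HS cows, beside 3.07% of all genes in that direction. The 2 genes without overlap compare with 5.95% of all genes that were higher in all HS cows. Estimates were above 0 in 7 of the 9 genes, beside 50.9% of all genes, and above a fold change of 1.5 in 5, beside 9.26%. Without HS replicate 2 the median of the 9 estimates was 0.56 in place of 1.58. *HP* was then at 1.15 (SE 1.23), *SAA3* at 1.11 (SE 0.49), *ITIH4* at 0.97 (SE 0.45) and *ORM1* at 0.56 (SE 0.36). *A2M* was at 1.80 (SE 0.45, edgeR FDR 0.544) and *LBP* at -1.34 (SE 0.46, edgeR FDR 0.955). *LBP* was lower in both remaining HS cows than in every PF cow, beside 7.96% of all genes. Without PF replicate 2, the PF cow with the highest level in 7 of the 9 genes, *HP* was at 6.02 (SE 1.93). In that fit 5 of the 9 genes were higher in HS cows without overlap, beside 11.2% of all genes.

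In PF against TN cows the genes with separate groups were others. *SAA3* averaged 20.1 ± 6.92 CPM in PF against 7.03 ± 2.48 CPM in TN cows (log2 fold change 1.52, SE 0.35, 95% interval 0.76 to 2.28, edgeR FDR 0.523). *LBP* averaged 176 ± 98.2 CPM in PF against 52.5 ± 40.2 CPM in TN cows (log2 fold change 1.74, SE 0.60, edgeR FDR 0.697). *CRP* and *CP* had estimates of 0.70 (SE 0.44) and 0.64 (SE 0.45), and all 4 genes were higher in every PF cow than in every TN cow, beside 6.81% of all genes. *HP*, *A2M*, *ORM1* and *ITIH4* had estimates of 0.41 (SE 1.32), 0.35 (SE 0.53), 0.20 (SE 0.55) and 0.03 (SE 0.49), and *ITIH3* had -0.32 (SE 0.37). The 95% interval of *HP* ran from -2.48 to 3.30.

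edgeR called none of the 9 genes in PF against TN cows, and it called 0% of all 14580 genes there, of which 6.88% had an unadjusted p under 0.05. Among the 9 genes, *SAA3* and *LBP* had such a p and were higher in PF cows, beside 2.99% of all genes in that direction. Estimates were above 0 in 8 of the 9 genes, beside 48.8% of all genes, and above a fold change of 1.5 in 4, beside 9.33%. DESeq2, which called 0.555% of its genes, called *SAA3* with an FDR of 0.0350. Without TN replicate 1, the cow with the low sum of hepatocyte markers, *SAA3* was at 1.43 (SE 0.40) and *LBP* at 1.30 (SE 0.47), while the median of the 9 estimates went from 0.41 to -0.05.

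**Figure D2:**
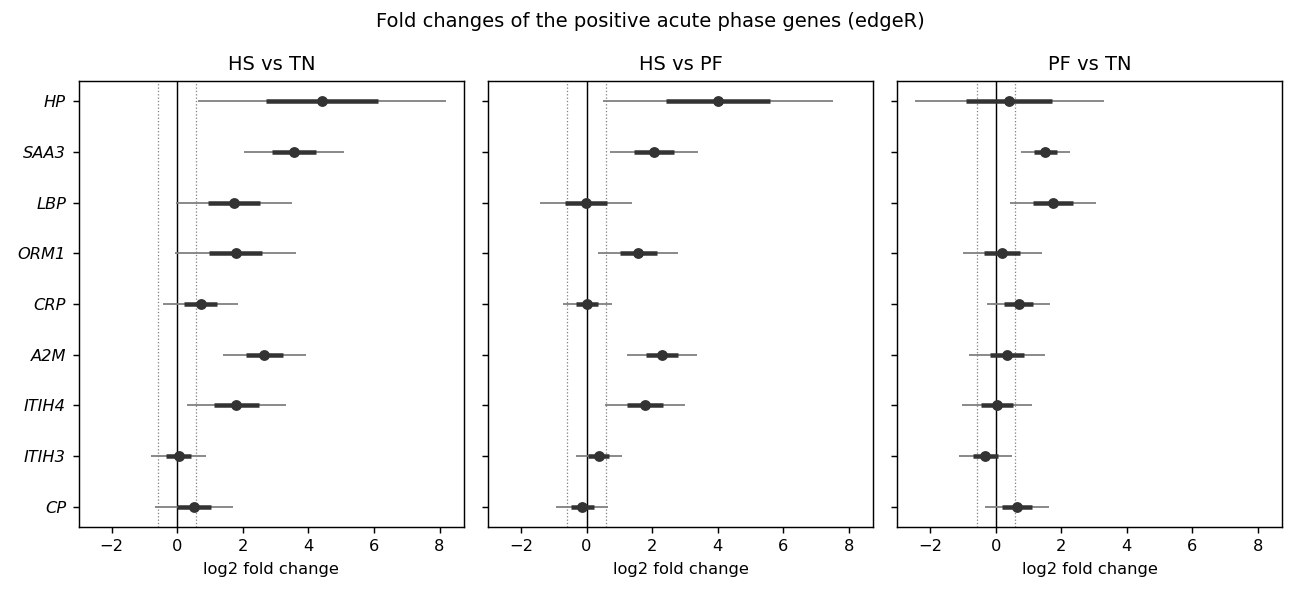
Log2 fold changes of the 9 acute phase genes in the 3 comparisons, from edgeR. Points are estimates, thick bars are 1 SE to each side, thin bars are 95% intervals and dotted lines mark a fold change of 1.5. *HP* has the longest bars in all 3 panels, *ITIH3* is near 0 in HS against TN cows (0.04), and *LBP* is at 1.73, -0.01 and 1.74.

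A single test of all 3 groups called none of the 9 genes at an FDR under 0.1, beside 0.0464% of all genes. *SAA3* had an FDR of 0.124 and *A2M* of 0.166 in this edgeR test, and *HP*, *ITIH4* and *ORM1* also had an unadjusted p under 0.05, as had 7.86% of all genes. The comparisons of HS and of PF with TN cows share the TN cows, so that the low values of TN replicate 1 enter both.

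Markers of cell types other than hepatocytes were also compared between groups. Of 10 markers of Kupffer cells, the macrophages of the liver, 8 were higher in every HS cow than in every PF cow, beside 5.95% of all genes. An unadjusted p under 0.05 was reached by 8 also, beside 3.07% of all genes, and 7 met both. None of the 10 was called by edgeR or DESeq2 in HS against PF cows, and the median log2 fold change was 0.80 (0.95 without HS replicate 2). *CD14*, on the same list, was at -0.40 (SE 0.27). In HS against TN cows 3 of the 10 were higher in every HS cow, beside 8.37% of all genes, and the median was 0.39. An unadjusted p under 0.05 was reached there by 1, beside 4.13% in that direction. In PF against TN cows 2 of the 10 had estimates above 0, beside 48.8% of all genes, with a median of -0.47. The 10 markers summed to 2441 to 4141 CPM in HS, 1590 to 2476 CPM in PF and 1622 to 3680 CPM in TN cows, and none of them was at 0. *MARCO*, a scavenger receptor of macrophages, had 138, 143 and 329 CPM in HS replicates 1, 2 and 3 against 44.7 to 129 CPM in PF cows. It was the only one of the 10 called in HS against TN cows, and by DESeq2 alone (log2 fold change 1.45, SE 0.40, edgeR FDR 0.381, DESeq2 FDR 0.0119). *VSIG4* and *CD68*, also macrophage genes, had the smallest p of the list in HS against PF cows, with 1.05 (SE 0.30, edgeR FDR 0.587) and 0.96 (SE 0.28, edgeR FDR 0.608). Neutrophil markers summed to 68.7 to 143 CPM in HS, 40.9 to 72.1 CPM in PF and 32.4 to 55.0 CPM in TN cows, with *CATHL1* at 0 in all 9 cows and *CATHL2*, *ELANE* and *MPO* at no more than 2.98 CPM. The neutrophil genes *S100A9* and *S100A12*, subunits of calcium-binding proteins, were called in HS against TN cows by DESeq2 (FDR 0.0117 and 0.0167) and not by edgeR (FDR 0.270 and 0.392). *S100A9* had 11.6, 19.4 and 19.9 CPM in HS, 3.49, 6.86 and 7.33 CPM in TN and 2.25, 17.9 and 4.03 CPM in PF replicates 1, 2 and 3, so that every HS cow exceeded every TN cow (log2 fold change 1.51, SE 0.34). *S100A12* was at 1.72 (SE 0.49), with 20.3 to 92.4 CPM in HS and 12.3 to 20.8 CPM in TN cows. All 6 neutrophil markers tested in HS against TN cows were above 0 (median 1.43), beside 49.3% of all genes. In HS against PF cows 5 of 6 were above 0 (median 1.01), beside 50.9% of all genes. An unadjusted p under 0.05 by edgeR was reached there by 3, beside 3.07% in that direction. *S100A8* had the smallest p of the list in HS against PF cows, at 1.52 (SE 0.57, edgeR FDR 0.795). *LTF*, on the same list, was at -0.49 (SE 0.37) there, and *S100A9* overlapped between these groups. HS replicate 3, not HS replicate 2, had the highest sum of both lists. Further lists held markers of T or NK cells, B or plasma cells, endothelial cells, stellate cells or fibroblasts, and bile duct cells (cholangiocytes). Their medians in HS against TN cows were -0.50, 0.22, -0.04, -0.34 and 0.23, in that order. In HS against PF cows they were -0.28, 0.52, 0.06, -0.03 and -0.09. Of 8 T or NK cell markers, 1 was above 0 in each comparison, beside 49.3% and 50.9% of all genes. Red blood cells had 2 tested genes, among them *HBB* (below). The part of these cells in the levels of the acute phase genes was not tested.

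The list of other positive acute phase genes, written with results of these cows known, held 17 genes of the table, and 16 were tested in HS against TN cows. All 16 had estimates above 0, beside 49.3% of all genes, and 14 were above a fold change of 1.5, beside 9.89%. The median was 0.93. The only gene called by edgeR was *HAMP*, which encodes hepcidin, the hormone that lowers iron export from cells: it had 529.7, 527 and 418 CPM in HS, 111, 99.9 and 51.9 CPM in TN and 72.0, 684 and 145 CPM in PF replicates 1, 2 and 3 (HS against TN 2.47, SE 0.37, FDR 0.0919). Its call was lost without TN replicate 1 (2.69, SE 0.38, edgeR FDR 0.106), without HS replicate 2 (2.42, SE 0.42, edgeR FDR 0.246) and without both (2.64, SE 0.41, edgeR FDR 0.286), while its HS cows stayed above its TN cows. Without TN replicate 1 alone, 15 of 17 genes had estimates above 0 (median 0.51), and without HS replicate 2 alone 15 of 17 (median 0.45). Without both cows it was 8 of 17, with a median of -0.01. The common direction thus held without either cow and was lost without both. TN replicate 1 was the lowest of the 9 cows in 16 of the 17 genes, and HS replicate 2 the highest in 11.

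In HS against PF cows the median of the 16 genes tested was 0.32, and none was called by edgeR or DESeq2. By edgeR 1 had an unadjusted p under 0.05, beside 5.32% of all genes. Estimates were above 0 in 15 of the 16 genes, beside 50.9% of all genes, but in 7 of 17 without HS replicate 2, where the median was -0.14. *SAA2*, another serum amyloid A gene, had the smallest unadjusted p there, with 1098, 9431 and 814 CPM in HS and 147, 971 and 607 CPM in PF replicates 1, 2 and 3 (log2 fold change 2.72, SE 0.92, edgeR FDR 0.685), and it was at 0.73 (SE 0.59) without HS replicate 2. The 3 fibrinogen genes *FGA*, *FGB* and *FGG* encode the chains of the clotting protein. *FGB* had 2324, 8060 and 11438 CPM in TN, 11513, 15538 and 10532 CPM in PF and 7250, 21931 and 12904 CPM in HS replicates 1, 2 and 3. *SERPINA3*, a serine protease inhibitor, had 38.6, 617 and 1375 CPM in TN, 709, 1727 and 729.6 CPM in PF and 656, 4133 and 1094 CPM in HS replicates 1, 2 and 3. HS replicate 2 was the highest cow in these genes also, and TN replicate 1 the lowest. In PF against TN cows 14 of 16 genes had estimates above 0, beside 48.8% of all genes, with a median of 0.69. Above a fold change of 1.5 were 12, beside 9.33%. Without TN replicate 1 the median was 0.32 and 4 of 17 genes were above that fold change. None was called by edgeR or DESeq2, and 2 had an unadjusted p under 0.05 by edgeR, beside 6.88% of all genes.

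**Figure D3:**
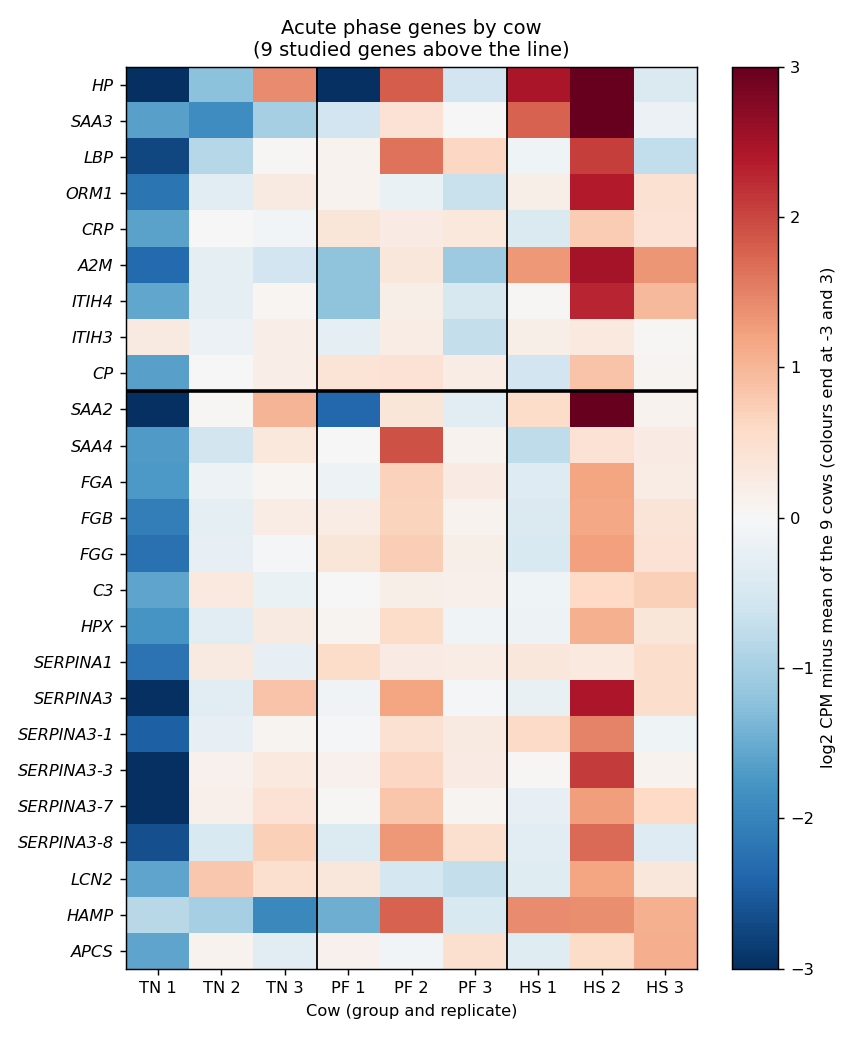
Level of the 9 acute phase genes (above the line) and of 16 other positive acute phase genes in each cow, as log2(CPM + 0.5) minus the mean of the 9 cows, with red above and blue below the mean and the colours ending at -3 and 3. The column of HS replicate 2 is red and that of TN replicate 1 is blue in most rows, with *ITIH3* as the gene of the 9 that is above its mean in TN replicate 1.

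Of the 9 negative acute phase genes listed, 8 had estimates above 0 in HS against TN cows (median 0.50) and 3 in HS against PF cows (median -0.21). The shares of all genes above 0 were 49.3% and 50.9%. edgeR and DESeq2 called none in any comparison, and 0, 1 and 1 genes had an unadjusted p under 0.05 by edgeR in HS against TN, HS against PF and PF against TN cows. The shares of all genes with such a p were 9.36%, 5.32% and 6.88%. *PON1*, which encodes paraoxonase of high-density lipoprotein, was lower in every HS cow (522 to 974 CPM) than in every PF cow (1047 to 1280 CPM) (log2 fold change -0.73, SE 0.31, edgeR FDR 0.908). It was not lower in HS than in TN cows (0.30, SE 0.47), and was higher in PF than in TN cows (1.03, SE 0.43, edgeR FDR 0.708). In PF against TN cows all 9 had estimates above 0, beside 48.8% of all genes, with a median of 0.94. Without TN replicate 1 all 9 were still above 0 there, with a median of 0.48, while in HS against TN cows 6 of the 9 were above 0, with a median of 0.06.

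Upstream of the acute phase genes, 13 genes of cytokines and their receptors were listed, and none was called by edgeR or DESeq2 in any comparison. In the same order as above, 11, 10 and 11 of them were tested, and 0, 1 and 1 had an unadjusted p under 0.05 by edgeR. The shares of all genes were 9.36%, 5.32% and 6.88%. *IL6* had a count of 0 in all 9 cows, which allows up to the 0.111 to 0.202 CPM given above. *TNF* had 2.62 to 4.63 CPM in TN, 0.36 to 1.96 CPM in PF and 1.23 to 2.84 CPM in HS cows. *IL1B* was higher in every HS cow (16.4 to 27.6 CPM) than in every PF cow (11.1 to 13.3 CPM) (log2 fold change 0.80, SE 0.26, edgeR FDR 0.668). Its TN cows, at 13 to 20.8 CPM, overlapped the HS cows. *IL6R*, the receptor of IL6, was slightly higher in HS (9.41 to 14.7 CPM) than in TN cows (8.03 to 8.47 CPM), and *IL1RAP*, a co-receptor of IL1, was lower (72.8 to 83.9 against 86.7 to 141 CPM). Their edgeR FDR were 0.573 and 0.545.

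Of 15 genes of signalling and transcription factors, edgeR and DESeq2 called none in any comparison. An unadjusted p under 0.05 by edgeR was reached by 1, 0 and 0, beside 9.36%, 5.32% and 6.88% of all genes. *CEBPB*, a transcription factor of the acute phase response, had 59.3, 67.8 and 74.2 CPM in HS and 39.2, 45.0 and 47.3 CPM in TN replicates 1, 2 and 3 (log2 fold change 0.60, SE 0.21, edgeR FDR 0.458), while PF cows ranged from 19.5 to 79.7 CPM. *NFKB1*, a subunit of NF-kB, was lower in every HS cow than in every TN cow (log2 fold change -0.49, SE 0.23, edgeR FDR 0.523). The 3 HS cows were close to each other in *CEBPB*, unlike in *HP* or *SAA3*.

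Among partners of the acute phase proteins, 13 genes were tested in each comparison. edgeR called none, with 2, 2 and 3 at an unadjusted p under 0.05, beside 9.36%, 5.32% and 6.88% of all genes. DESeq2 called 2, 1 and 1, beside 1.75%, 0.771% and 0.555% of its genes. *HMOX1*, which encodes the haem oxygenase that breaks down haem, had 243, 124 and 296 CPM in HS, 56.2, 104 and 67.5 CPM in TN and 76.5, 97.2 and 84.9 CPM in PF replicates 1, 2 and 3. Every HS cow exceeded the other 6 cows, with log2 fold changes of 1.53 (SE 0.38, edgeR FDR 0.315) against TN and 1.35 (SE 0.32, edgeR FDR 0.377) against PF cows, and DESeq2 called the gene in both (FDR 0.00313 and 0.00712). HS replicate 2, the highest cow in *HP*, was the lowest of the HS cows in *HMOX1*. *HBB*, a chain of the haemoglobin that haptoglobin binds, ranged from 3.21 to 22.4 CPM in TN and from 0.34 to 1.07 CPM in HS cows (log2 fold change -4.04, SE 0.74, edgeR FDR 0.163). DESeq2 called it there (FDR 2.95e-07). *HBB* was also lower in every PF cow than in every TN cow (log2 fold change -2.99, SE 0.93, edgeR FDR 0.693), beside 6.36% of all genes. Between HS and PF cows it overlapped, at -1.07 (SE 1.05). *HBA* had at most 0.35 CPM in any cow. *CD14*, to which LBP passes lipopolysaccharide, was higher in all PF cows (239 to 327 CPM) than in all TN cows (56.3 to 147 CPM) (log2 fold change 1.22, SE 0.39, edgeR FDR 0.697). DESeq2 called it in that comparison (FDR 0.0964). *CD163*, the macrophage receptor for haptoglobin bound to haemoglobin, ranged from 101 to 146 CPM in HS and from 60.1 to 92.3 CPM in PF cows, with an estimate of 0.60 (SE 0.26, edgeR FDR 0.908).

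Whether the other 8 acute phase genes were high in the same cows as *HP* was examined by the correlation of log2(CPM + 0.5) over the 9 cows, with exact two-sided permutation tests and adjustment over the 8 relations. Pearson's r was 0.87 for *ITIH4* (adjusted permutation p = 0.0210), 0.84 for *A2M* (adjusted permutation p = 0.0210) and 0.79 for *SAA3* (adjusted permutation p = 0.0303), which were the 3 relations past 0.05. Spearman's rho was 0.82, 0.82 and 0.78 for the same genes, with adjusted permutation p = 0.0431, 0.0431 and 0.0459. *ORM1* (r 0.74) and *LBP* (r 0.71) both had an adjusted permutation p = 0.0519, with rho of 0.63 and 0.52, and *CP*, *CRP* and *ITIH3* had r of 0.49, 0.46 and 0.39. The unadjusted permutation p were 0.0030, 0.0053 and 0.0114 for *ITIH4*, *A2M* and *SAA3*.

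Without PF replicate 1 and HS replicate 2, the cows farthest from the median of *HP*, r was 0.69 for *ITIH4*, 0.73 for *A2M* and 0.73 for *SAA3*. No relation passed without HS replicate 2 or without TN replicate 1, so the calls rested on these cows. Within groups, where only the deviations from the group means were correlated and the cows were permuted within groups, r was 0.92 for *LBP* (adjusted permutation p = 0.0370) and 0.81, 0.80 and 0.80 for *A2M*, *ITIH4* and *SAA3* (adjusted permutation p = 0.111, 0.0988 and 0.0741). *LBP* was thus the gene with the highest r within groups, although 4 genes ranked above it over the 9 cows.

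**Figure D4:**
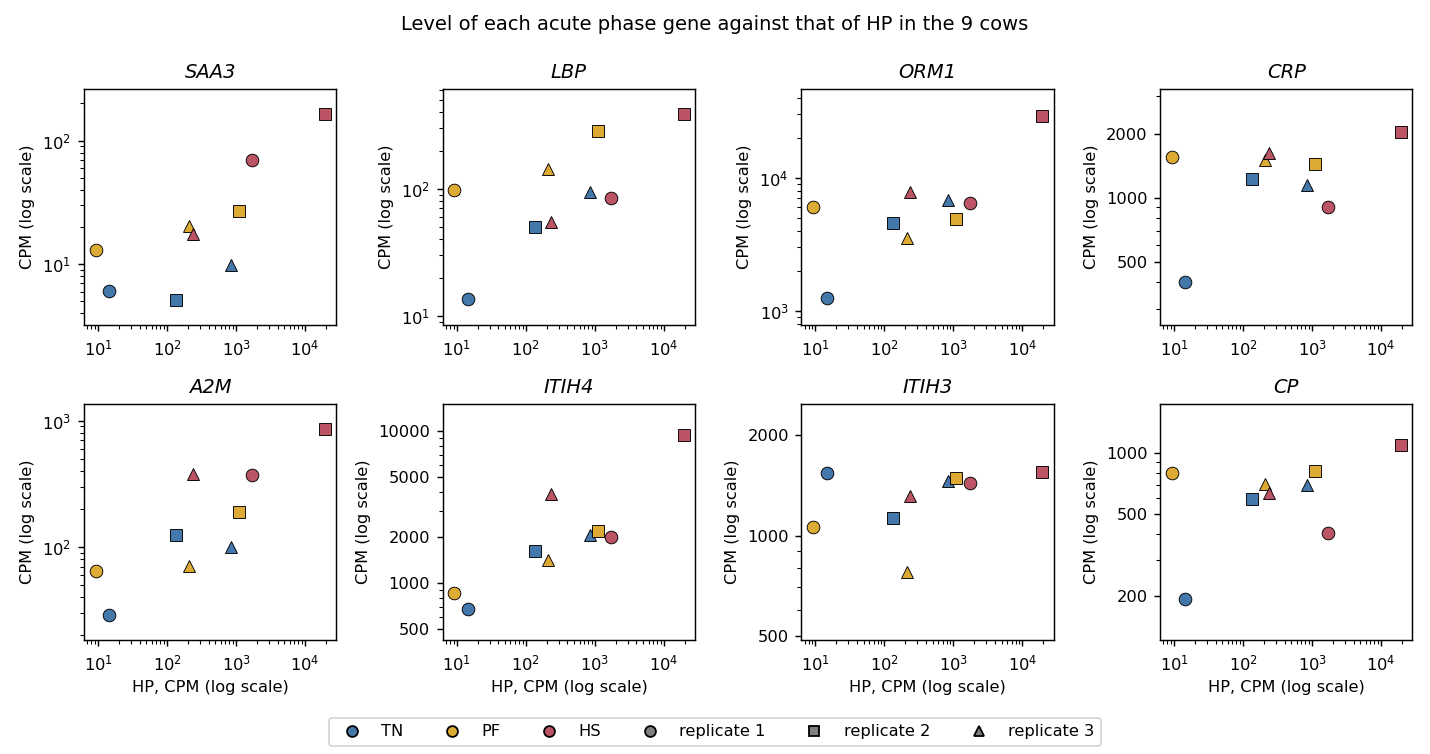
Level of each of the other 8 acute phase genes against that of *HP* in the 9 cows, both in CPM on log scales, coloured by group and shaped by replicate number. HS replicate 2 is at the upper right of every panel at 19381 CPM of *HP*, and PF replicate 1, at 9.17 CPM of *HP*, is low in *ITIH4* (855 CPM) but the third highest cow in *CRP* (1560 CPM).

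Over all 15072 other genes, the level of *SAA2* was the most like that of *HP*, with r 0.96 over the 9 cows. It was followed by *CCL24* (0.95), a chemokine gene, *WDR78* (0.94), *NDUFAF5* (0.93) and *LOC100848294* (0.93). *SAA2* had 88.3 to 9431 CPM, whereas the other 4 had at most 11.9 CPM in any cow. These coefficients were picked as the highest of many genes over 9 cows and are a description only.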

How the data were processed

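The values are the deposited raw read counts per gene, which the authors made, per the labels and the study's methods, with fastp 0.23.2, STAR 2.7.9a (ARS-UCD1.2 assembly) and featureCounts 2.0.3; the annotation release, the strand setting and the handling of multi-mapped reads are not given in the sources used here. All 9 columns were mapped to cows through the sample descriptions, with 0 columns unused. The total per library was 16874444 to 22557047 counts. The 24366 of 28786 symbols found in RefSeq (ARS-UCD2.0) served only to name neighbouring genes.

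For each comparison, the 6 libraries of the 2 groups were fitted over all genes with edgeR 4.0.16 in R 4.3.3 (TMM, filterByExpr, quasi-likelihood F test, Benjamini-Hochberg). A gene was called when its FDR was under 0.1 and its fold change over 1.5. SE values are the log2 fold change divided by the root of F, and 95% intervals use the degrees of freedom of the fit. Spread and correlations used log2(TMM CPM + 0.5), and correlations were tested by exact permutation with scipy 1.17.1. The tests were first run on simulated counts. The members and gene lists were chosen with earlier results of these data known. The genes named come from the 9 members, the other positive acute phase genes, of each other list the genes called or with the 2 smallest p in a comparison, and the 5 genes most like *HP*, and not all that this rule allows are named; *IL6* and the genes listed at or near 0 are named beyond this rule, after their values were seen.

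Alternatives were DESeq2 1.42.0, RLE size factors, library sizes without mitochondrial genes or without the 9 genes, no filter, a minimum of 10 counts in every library, 1 fit of all libraries, a replicate block, an FDR under 0.05, glmTreat, robust estimation, another offset, and each cow left out. Fits without both TN replicate 1 and HS replicate 2, and the gene lists and their genes without single cows, were added after seeing the data. Each cow is a separate animal, so the spread is biological and technical together.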

Additional observations from a re-analysis of the deposited data

How the results depend on the processing

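With the settings described, edgeR called 0 of the 9 genes in every comparison. In HS against TN cows it was 3 with DESeq2 (*SAA3*, *ITIH4* and *A2M*), 2 without the filter on low counts (*SAA3* and *A2M*), 1 with a replicate block (*A2M*, FDR 0.0588) and 0 to 1 with a cow left out. In HS against PF cows it was 3 without the filter (*HP*, *SAA3* and *A2M*), 1 with the block (*A2M*, FDR 0.0702) and 0 with any cow left out. In PF against TN cows it was 1 with DESeq2 (*SAA3*), 2 without the filter (*SAA3* and *LBP*) and 0 with any cow left out, and in the test of 3 groups 2 with DESeq2, 3 without the filter, 1 with the block and 0 to 1 with a cow left out. Over all genes, the 13, 4, 0 and 7 calls were 270, 122, 91 and 291 with DESeq2, 124, 98, 136 and 212 without the filter and 33, 6, 1 and 7 with the block. With a cow left out they ranged from 0 (without HS replicate 2) to 39 (without TN replicate 2), 5 to 10, 0 to 14 and 2 to 47, and over the remaining settings from 0 to 16, 3 to 8, 0 to 1 and 3 to 16. The cause of these differences was not tested. The labels do not say whether the replicate numbers pair cows. Deviations from the group means of cows with the same number correlated at -0.22 to 0.24, above 0.1 in 3 of 9 pairs. Such correlations cannot settle whether cows were matched. The other alternatives, among them RLE size factors and library sizes without mitochondrial genes, made no call among the 9 genes.

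Some estimates changed sign. *LBP* in HS against PF cows was 0.0020 with at least 10 counts in every sample, *CRP* in HS against PF cows and *HP* in PF against TN cows were -0.0590 and -0.0587 with the replicate block, and *LBP* and *CP* in HS against TN cows were -0.0465 and -0.31 without TN replicate 1 and HS replicate 2. With a cow left out, the range was -0.0759 to 0.15 for *ITIH3* in HS against TN cows. In HS against PF cows it was -1.34 to 0.54 for *LBP*, -0.25 to 0.28 for *CRP* and -0.57 to 0.14 for *CP*. In PF against TN cows it was -1.59 to 2.57 for *HP*, -0.36 to 0.37 for *ITIH4*, -0.33 to 0.74 for *A2M* and -0.23 to 0.73 for *ORM1*.

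Of the 8 relations with *HP*, 3 passed; the count was 5 with an offset of 2 CPM, 5 with the variance-stabilizing transformation, 1 with deviations from the group means, and 0 to 5 with a cow left out. The pooled SDs between cows were checked with an offset of 2 CPM and with RLE size factors only. For each gene they moved by less than the SD among its 3 group SDs. The lowest count behind a value of the 9 genes was 83.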

Other observations

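Some genes upstream of the acute phase were high in PF replicate 2, the cow with the highest level of 7 of the 9 genes in its group, and were chosen after their values were seen. *SOCS3*, a feedback inhibitor of STAT3 signalling that is induced by IL6-type cytokines, had 25.6 CPM in PF replicate 2 and 24.7 CPM in HS replicate 2, the highest *HP* cow, and 4.14 to 11 CPM in the other 7 cows. *CEBPD*, a transcription factor of the acute phase response, had 434 CPM in PF replicate 2 and 104 to 214 CPM in the other 8 cows, with 191 CPM in HS replicate 2. *STAT3* itself had 149 CPM in PF replicate 2, 134 CPM in HS replicate 2 and 55.4 to 124 CPM in the other 7 cows. HS replicate 1, the second highest *HP* cow, had 11 CPM of *SOCS3*, the highest of those 7 cows. Its *STAT3*, at 95.1 CPM, was within the range of the cows with less *HP*.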
